A study of Homo sapiens with 4 samples.

Results

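The genes described here encode the inhibitors of cyclin-dependent kinases (CDKs), namely CDKN1A, CDKN1B, CDKN1C, CDKN2A, CDKN2B, CDKN2C and CDKN2D. They were followed in KYSE170 cells, a line derived from human squamous carcinoma of the oesophagus, on oligonucleotide arrays. Members were all probe sets that the platform annotation assigns to exactly 1 gene, where that gene is among these 7. Of the 54613 probe sets on the array, 14 met this rule. They covered 6 of the 7 genes (of 19775 genes in all), and CDKN2C was not analysed here. CDKN1A and CDKN1B had 1 probe set each, CDKN1C had 5, CDKN2A had 3, and CDKN2B and CDKN2D had 2 each. Cells were exposed to EDHB (ethyl-3,4-dihydroxybenzoate) at 50 µg/ml for 12 h (2 arrays) or left untreated (2 arrays), and the comparison asked how the compound altered expression. EDHB is an ester of protocatechuic acid that inhibits prolyl hydroxylases, among them the oxygen sensors that tag hypoxia-inducible factors for destruction. Both groups were grown in RPMI medium with serum and antibiotics. The design thus holds 1 cell line, 1 dose and 1 time, and no vehicle is named for the untreated cultures.

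CDK inhibitors are brakes on the cell cycle and fall into a pair of families. The CIP/KIP proteins p21 (CDKN1A), p27 (CDKN1B) and p57 (CDKN1C) bind whole cyclin and CDK complexes and block above all those of CDK2. The INK4 proteins p16 (CDKN2A), p15 (CDKN2B), p18 (CDKN2C) and p19 (CDKN2D) bind CDK4 and CDK6 and keep them from their D-type cyclins. Either way RB and its relatives stay unphosphorylated and hold E2F factors in check, so that cells do not enter S phase. CDKN1A is the classical target of p53 and responds to many stresses, p27 is controlled largely through degradation of the protein, and CDKN2A is often lost in squamous carcinoma of the oesophagus.

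Values below are log2 intensities. The labels do not state that the replicates came from separate cultures, so p-values cover the spread among these 4 arrays only, which may be technical. In the deposited table the replicate 2 values did not stand beside their own probe set IDs, and their order was restored for 54459 probe sets from the untreated levels. Across probe sets, log2 levels of both EDHB arrays had a correlation of 0.418 before this step and of 0.997 after it. The changes within replicates 1 and 2 (EDHB minus untreated) correlated far less, at 0.044 before it and 0.376 after it. Rows were matched on untreated levels, so a high correlation of EDHB levels was largely built into this step. Of the 14 member probe sets, 13 were restored, each with a posterior of 1. The change within replicate 1 (EDHB 1 minus untreated 1) needs no restoring and is given for the brightest restored probe set of each member. The median probe set had a level of 4.54, and levels below it were not shown to be above background. Squamous epithelial markers fitted the label in part. Of 10 listed, 7 were measured (not KRT6A, KRT17 and TP63), and 6 lay above the median probe set. CDH1 and EPCAM had mean levels of 11.09 and 12.02 on EDHB arrays and 10.84 and 11.90 on untreated arrays. KRT5 and DSG3 were lower, at 6.52 and 6.18 on EDHB arrays and 6.43 and 5.89 on untreated arrays. KRT14 lay below the median probe set, at 3.64 on EDHB arrays and 3.75 on untreated arrays. Of 15 measured markers of fibroblasts, leukocytes and endothelium, 3 lay above it (COL1A1, PDGFRB and PECAM1). The summed linear intensity of the squamous markers, mostly from SFN, EPCAM and CDH1, was 14136 to 14648 on EDHB arrays and 13337 to 13468 on untreated arrays. The sums of fibroblast markers were 139 to 145 on EDHB arrays and 150 to 153 on untreated arrays. Leukocyte markers summed to 41.8 to 42.6 on EDHB arrays and 42.3 to 43.0 on untreated arrays, and endothelial markers to 87.6 to 88.2 on EDHB arrays and 78.7 to 86.9 on untreated arrays.

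Across the family, only CDKN1A had an unadjusted p under 0.05 in limma between EDHB and untreated cells. Its level was 1.96-fold higher with EDHB, while the other 5 measured genes had changes of 0.06 to 0.14 log2 units. No member passed the threshold over all genes. In limma with Benjamini-Hochberg adjustment, 0 of the 6 measured genes had an adjusted p under 0.05, against 2 of all 19751 genes tested (0.0101%). At an unadjusted p under 0.05, 1 of 6 passed, close to the share among all genes (16.8%). When limma's prior variance was allowed to follow the intensity, CDKN1A was the 1 member called (adjusted p = 0.0104), against 1.9% of all genes. From here on this second fit is called the trend fit.

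The level of CDKN1A was 8.93 and 8.85 on EDHB arrays 1 and 2, against 7.98 and 7.86 on untreated arrays 1 and 2. Both EDHB arrays lay above both untreated arrays, and the gap between the groups was several times the gap within either. On the linear scale these were intensities of 487 and 461 with EDHB and 252 and 232 without. The means were 8.89 ± 0.06 with EDHB and 7.92 ± 0.09 without (SD, n = 2 each). The change was 0.95 within replicate 1 and 0.99 within replicate 2. In limma, fitted over all genes, the change was 0.97 ± 0.09 (SE), with a 95% interval of 0.75 to 1.19 and an adjusted p of 0.0763 (unadjusted p = 9.80e-05). Among the 19751 genes with a restored probe set, CDKN1A ranked 46 by the size of its increase and 22 by p. Strongly changed probe sets were restored less often than others. Within replicate 1 alone, 112 of all 54613 probe sets (0.205%) had an increase at least as large. CDKN1A passed in 5 of 13 alternatives (adjusted p 0.0104 to 0.575 over all 13), and its change was 0.91 to 1.03 without any 1 array. An exact permutation test over 2 against 2 arrays cannot go below p = 0.333. In such cultures more cells expressing p21 and more p21 mRNA per cell cannot be told apart.

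**Figure D1:**
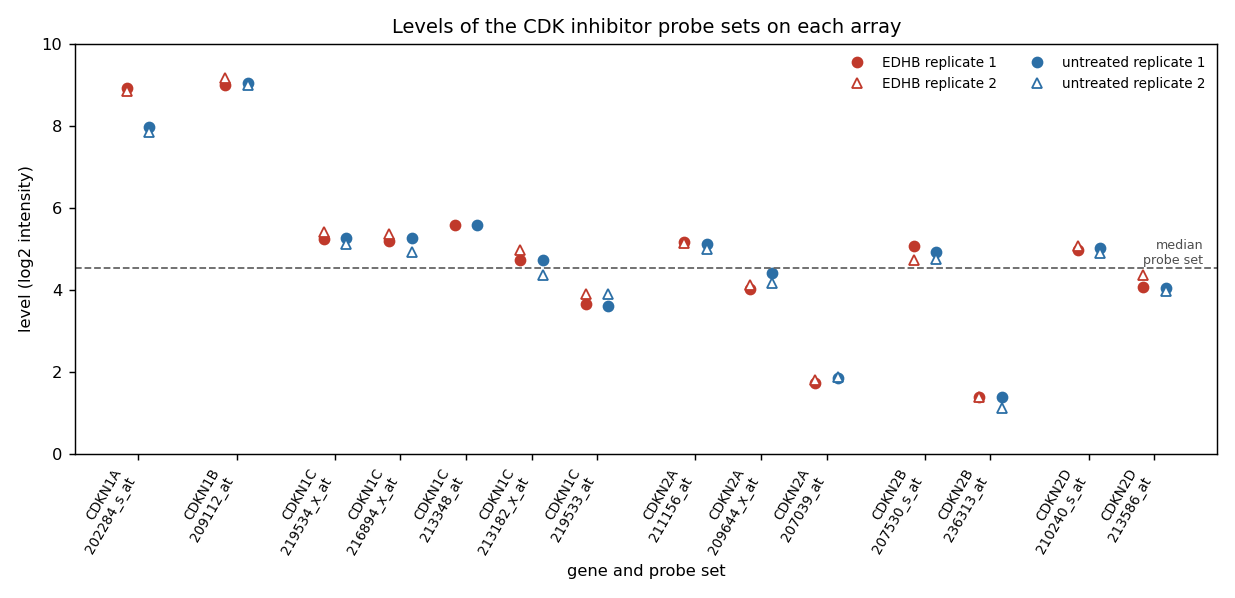
Level (log2 intensity) of each CDK inhibitor probe set on each array, with EDHB arrays in red on the left and untreated arrays in blue on the right of each position. Circles are replicate 1 and open triangles replicate 2. The dashed line is the median probe set (4.54). CDKN1A stands apart with EDHB arrays at 8.93 and 8.85 and untreated arrays at 7.98 and 7.86, and the CDKN1C probe set that was not restored has replicate 1 values only.

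CDKN1B, which encodes p27, had levels of 9.003 and 9.180 on EDHB arrays 1 and 2 and of 9.045 and 9.008 on untreated arrays 1 and 2. The untreated values lay between the EDHB values, so the groups overlapped. The change was -0.04 within replicate 1 and 0.17 within replicate 2. Its mean of 0.06 had a 95% interval of -0.17 to 0.30 (limma, adjusted p = 0.790). CDKN1A and CDKN1B were the only members whose probe sets lay far above the median probe set, at the percentiles 88.7 and 92.2 of all restored probe sets by mean level. The intervals of their changes did not overlap, and the difference between them was not tested.

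The promoters of this pair are shown because CDKN1A had the largest change of the family and CDKN1B, also well above the median probe set, had a change near 0. Each sequence runs 5′ to 3′ over 250 bases before and 50 bases after the annotated start, from RefSeq on GRCh38.p14, and capitals mark GC boxes (GGGCGG) and the core of the hypoxia response element (ACGTG or GCGTG), searched on both strands. CDKN1A lies on the plus strand at chr6:36678464-36678763 and CDKN1B on the plus strand at chr12:12717118-12717417.
CDKN1A: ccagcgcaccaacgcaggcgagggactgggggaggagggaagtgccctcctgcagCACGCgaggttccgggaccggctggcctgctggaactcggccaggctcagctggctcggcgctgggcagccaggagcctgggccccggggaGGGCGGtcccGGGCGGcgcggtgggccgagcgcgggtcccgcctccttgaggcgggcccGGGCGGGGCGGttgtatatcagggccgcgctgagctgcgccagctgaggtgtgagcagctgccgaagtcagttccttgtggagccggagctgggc
CDKN1B: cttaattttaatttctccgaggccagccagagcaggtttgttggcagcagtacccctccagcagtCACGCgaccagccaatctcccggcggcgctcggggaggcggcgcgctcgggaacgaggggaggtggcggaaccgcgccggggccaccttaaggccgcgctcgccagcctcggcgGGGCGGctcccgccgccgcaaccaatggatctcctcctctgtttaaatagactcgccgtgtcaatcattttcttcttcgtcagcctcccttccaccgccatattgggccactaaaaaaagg
CDKN1A had 4 GC boxes, starting 104, 94, 45 and 40 bases before the start, of which the last 2 overlap by 1 base. CDKN1B had 1, at 71 bases before it. At least 1 GC box stood in 44.95% of all 35116 promoters of the same length. Each promoter had 1 hypoxia response core, read on the minus strand as CACGC, at 195 bases before the start in CDKN1A and 185 in CDKN1B. Such a core stood in 48.4% of all promoters. Neither held the TATAAA box, the CACGTG E-box, the TGACGT core of the cAMP response element or the C/EBP-ATF element TGATGCAA. The antioxidant response core TGACNNNGC had 1 match in CDKN1B, on the minus strand, and none in CDKN1A, against 13.3% of all promoters. The GC content was 74.3% for CDKN1A and 62.3% for CDKN1B, with a median of 58.7% over all promoters. The matches describe the letters only.

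CDKN1C, which encodes p57, was read by 5 probe sets, of which 4 were restored. Its brightest restored probe set had levels of 5.25 and 5.40 on EDHB arrays 1 and 2 and of 5.26 and 5.12 on untreated arrays 1 and 2. The groups overlapped, and the change was -0.01 within replicate 1 and 0.28 within replicate 2. The mean change was 0.14 (95% interval -0.12 to 0.39, limma adjusted p = 0.559). The other restored probe sets of CDKN1C, from bright to dim, differed by 0.19, 0.31 and 0.03. For each of these, as for the brightest, the value within replicate 1 was close to 0 (-0.07, 0.01 and 0.05). The value of 0.31 came from the third brightest of the restored probe sets, where both EDHB arrays (4.73 and 4.97) lay above both untreated arrays (4.72 and 4.35), almost wholly through replicate 2. The probe set that was not restored had the same level of 5.59 on EDHB array 1 and untreated array 1. Of the 4 restored probe sets, 3 carry the suffix _x_, which the manufacturer gives to probe sets that can cross-hybridise with other sequences.

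Among the INK4 genes, levels were near or below the median probe set in both groups. CDKN2A, the gene of p16 and, in another reading frame, of the MDM2 inhibitor p14ARF, had 3 probe sets that did not run the same way. The brightest had levels of 5.17 and 5.16 on EDHB arrays 1 and 2 and of 5.11 and 5.01 on untreated arrays 1 and 2. Its change was 0.05 and 0.15 within replicates 1 and 2, with a mean of 0.10 and a 95% interval of -0.11 to 0.31 (limma adjusted p = 0.603). The next in brightness, which carries the suffix _x_, had levels of 4.01 and 4.11 with EDHB and of 4.42 and 4.17 without, a change of -0.24. The dimmest had levels of 1.73 and 1.80 with EDHB and of 1.86 and 1.87 without, a change of -0.10. Both of these lay below the median probe set. In all 3 the groups did not overlap, higher in the first and lower in the others. Groups failed to overlap in 42% of all restored probe sets, and in 6 of the 13 restored member probe sets (4 higher, against 20.2% of all, and 2 lower, against 21.8% of all). No member probe set was called in limma over all probe sets, where 0% of all were called, 1 of the 13 had an unadjusted p under 0.05, and that was CDKN1A, with an adjusted p of 0.204. Averaging the 3 probe sets turned the sign of the CDKN2A change, to -0.08.

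CDKN2B, the gene of p15, had levels of 5.07 and 4.72 on EDHB arrays 1 and 2 and of 4.92 and 4.75 on untreated arrays 1 and 2. The groups overlapped, and the change was 0.15 within replicate 1 and -0.03 within replicate 2, with a mean of 0.06 (95% interval -0.31 to 0.43, limma adjusted p = 0.884), the widest interval of the family. Its other probe set had a level of 1.39 on both EDHB arrays and of 1.39 and 1.11 on the untreated arrays. CDKN2D, the gene of p19, had levels of 4.97 and 5.07 on EDHB arrays 1 and 2 and of 5.03 and 4.90 on untreated arrays 1 and 2, again with overlap. Its change was -0.06 within replicate 1 and 0.17 within replicate 2, with a mean of 0.06 (95% interval -0.17 to 0.29, limma adjusted p = 0.814). The other probe set of CDKN2D differed by 0.19, with levels of 4.06 and 4.36 with EDHB and of 4.05 and 3.98 without. For the 5 genes other than CDKN1A, the intervals together ran from -0.31 to 0.43 log2 units. With 2 arrays a group, changes within each gene's own interval were not excluded, and these intervals are not limits of detection.

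**Figure D2:**
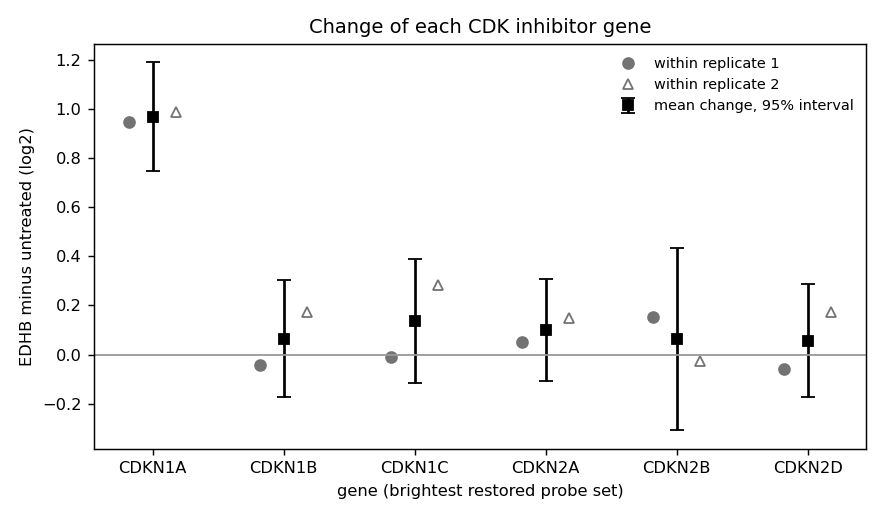
Change of each CDK inhibitor gene, EDHB minus untreated in log2 units, on its brightest restored probe set. Squares are the mean change with its 95% interval from limma (n = 2 each), grey circles the change within replicate 1 and open triangles that within replicate 2. CDKN1A lies at 0.97 (0.75 to 1.19), and the intervals of the other 5 genes include 0.

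CDKN2A and CDKN2B lie next to each other on chromosome 9, and the genes around them, given as measured, were mostly dim on these arrays. MTAP, the methylthioadenosine phosphorylase gene beside CDKN2A, had 6 restored probe sets, and all 6 lay below the median probe set, with mean levels of 1.93 to 3.93. The antisense transcript CDKN2B-AS1 had levels of 1.32 and 1.33 on EDHB arrays and of 1.44 and 1.46 on untreated arrays. DMRTA1 had levels of 3.76 and 3.46 with EDHB and of 3.66 and 3.93 without, and IFNE had 2.00 and 1.48 with EDHB and 1.48 and 1.80 without. KLHL9, an adaptor of a CUL3 ubiquitin ligase, was the 1 gene of these 5 whose brightest probe set lay above the median probe set. That probe set had 8.08 and 8.12 on EDHB arrays and 8.17 and 7.99 on untreated arrays. Of the 4 restored probe sets of KLHL9, 2 lay below the median probe set, and mean levels ran from 1.42 to 8.09. None of the 5 was called in limma, and 0 had an unadjusted p under 0.05, against 16.8% of all genes.

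The profile of CDKN1A over the 4 arrays was most like those of ANKRD37, ATOSA and HERPUD1, among 12399 other genes above the median probe set. Likeness was the Euclidean distance between log2 profiles centred on their own means, 0.0798 for ANKRD37, 0.0944 for ATOSA and 0.103 for HERPUD1. Their changes were 0.91, 0.94 and 0.96 log2 units. Profiles of the other members, with changes near 0, lay closer still to their nearest genes. The nearest were CCN5 for CDKN1B (0.0110), OSBPL9 for CDKN1C (0.0187), AGTRAP for CDKN2A (0.00390), RND1 for CDKN2B (0.0183) and ARHGEF3 for CDKN2D (0.00747). With 4 arrays such distances describe the values and no more.

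**Figure D3:**
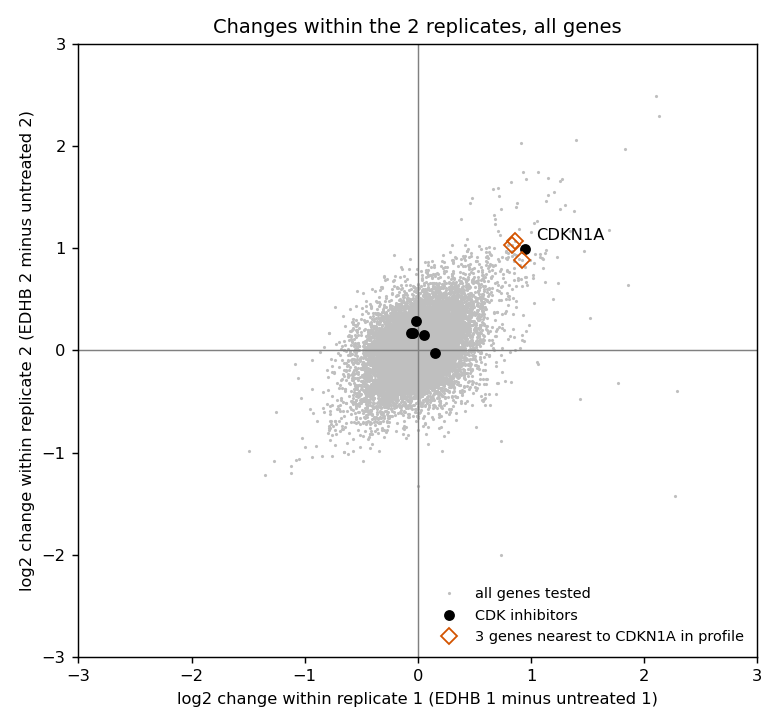
Log2 change within replicate 1 (horizontal) against that within replicate 2 (vertical) for all 19751 genes tested (grey), the CDK inhibitors (black) and the 3 genes nearest to CDKN1A in profile (orange diamonds). CDKN1A lies at 0.95 and 0.99, outside the cloud in which the other members sit. Of all genes, 1 lies outside the axes.

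Genes of CDK control with RB and E2F, genes of inhibitor turnover and transcription, and other p53 targets were read from 7 lists holding 122 measured genes. None was called in limma over all genes. In all, 36 (29.5%) had an unadjusted p under 0.05, against 16.8% of all genes. In the trend fit 9 (7.38%) were called, against 1.9% of all genes. Nearly all list genes lay above the median probe set, so all genes are an unlike baseline here and below. In limma without the trend on the 12400 genes above it alone, 3046 had an unadjusted p under 0.05 and 426 were called. The trend fit was not run on those genes alone, so its share in the lists has no like baseline. The lists were chosen with earlier results of these data known, and the cause of their difference from all genes was not tested.

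The cyclins and kinases that the inhibitors bind had 15 measured members, with a median change of -0.05 beside -0.001 over all genes. At an unadjusted p under 0.05, 4 were higher (8.81% of all genes) and 3 lower (7.98% of all genes). CCNE2, a cyclin that activates CDK2, had levels of 10.22 and 10.19 on EDHB arrays and of 9.26 and 9.52 on untreated arrays, a change of 0.81 (limma adjusted p = 0.104, and 0.0247 with the trend). CCND1, the D-type cyclin that partners CDK4 and CDK6, had levels of 8.71 and 8.81 with EDHB and of 9.14 and 9.24 without. Its change of -0.42 had an adjusted p of 0.144 in limma and of 0.0486 with the trend. CCNA2 and PCNA, the replication clamp that p21 also binds, differed by -0.39 and 0.26. The partners thus did not run one way, and CCNE2 and CCND1 stood on opposite sides of 0.

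Among 10 other brakes and activators of CDKs, 2 had a change above 0, against 9766 of all 19751 genes, and the median was -0.12. At an unadjusted p under 0.05, 0 were higher (8.81% of all genes) and 3 lower (7.98% of all genes). CDC25B, a phosphatase that activates CDK complexes, had levels of 8.020 and 8.004 on EDHB arrays and of 8.77 and 8.53 on untreated arrays, a change of -0.64 (limma adjusted p = 0.123, and 0.0395 with the trend). CDKN3, a phosphatase that acts on CDK2 and is no member of either inhibitor family despite its symbol, had 9.48 and 9.40 with EDHB and 10.14 and 9.91 without. Its change was -0.59 (adjusted p = 0.132 in limma, 0.0402 with the trend). CDKN3 thus lay on the other side of 0 from CDKN1A. CDK2AP1 and CDK2AP2 differed by 0.07 and 0.06, and within replicate 1 alone by 0.02 and -0.10.

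Of 20 measured genes of the RB family, the E2F factors and the DREAM complex, 5 were higher (8.81% of all genes) and 2 lower (7.98% of all genes) at an unadjusted p under 0.05, with a median of 0.03. E2F5, a repressive E2F that partners the RB relatives, had levels of 6.25 and 6.19 on EDHB arrays and of 7.005 and 7.229 on untreated arrays. Its change of -0.90 had an adjusted p of 0.0897 in limma and of 0.0263 with the trend, and its other probe set differed by -0.37. E2F3, an activating E2F, differed by -0.22, and E2F7, an atypical repressor, and the E2F partner TFDP2 by 0.39 and 0.34. Among 19 measured E2F targets of S phase the median was 0.04, with 3 higher (8.81% of all genes) and 1 lower (7.98% of all genes) at an unadjusted p under 0.05. CDC6, the loader of the replicative helicase, and RRM2, a subunit of ribonucleotide reductase, differed by 0.28 and 0.25, and UHRF1 and MCM2 by -0.21 and -0.14. The 23 measured p53 targets other than CDKN1A had a median of 0.10, with 7 higher (8.81% of all genes) and 1 lower (7.98% of all genes) at an unadjusted p under 0.05. GDF15, a stress-induced cytokine, and SESN2, a sestrin, had changes of 1.73 and 0.66, and AEN and TIGAR of -0.53 and -0.20. The other 2 restored probe sets of GDF15 differed by -0.05 and 0.69. On its brightest probe set GDF15 passed with the trend (adjusted p = 0.0332). So did PMAIP1, the cell death protein NOXA, which is named after its values were seen, with a change of 0.46 (adjusted p = 0.0408 with the trend, 0.131 in limma without it).

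Of the genes that destroy inhibitor proteins, 14 were measured, with a median of -0.02 and with 1 higher (8.81% of all genes) and 2 lower (7.98% of all genes) at an unadjusted p under 0.05. CKS2, a small CDK-binding protein related to the cofactor of SKP2 in p27 degradation, had levels of 11.13 and 11.23 on EDHB arrays and of 11.73 and 11.78 on untreated arrays, a change of -0.57 (limma adjusted p = 0.109, and 0.0141 with the trend). DTL, the receptor that brings p21 to its CUL4 ubiquitin ligase, differed by 0.30, and CUL4A by -0.31. MDM2, the ubiquitin ligase of p53, differed by 0.15, with 5 of its 9 other restored probe sets on the other side of 0, 1 of them above the median probe set. Among 22 measured regulators of inhibitor transcription the median was 0.09, with 4 higher (8.81% of all genes) and 0 lower (7.98% of all genes) at an unadjusted p under 0.05. KLF4, an epithelial factor known to activate CDKN1A, had levels of 8.88 and 8.79 on EDHB arrays and of 8.09 and 8.26 on untreated arrays. Its change was 0.66 (limma adjusted p = 0.115, and 0.0315 with the trend). CEBPB differed by 0.43, and TBX3, a repressor of CDKN2A and CDKN1A, and SMAD2 by -0.12 and -0.09. On the other side of 0 lay 2 of the 6 other restored probe sets of TBX3, neither above the median probe set, and 2 of the 5 of SMAD2, both above it.

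**Figure D4:**
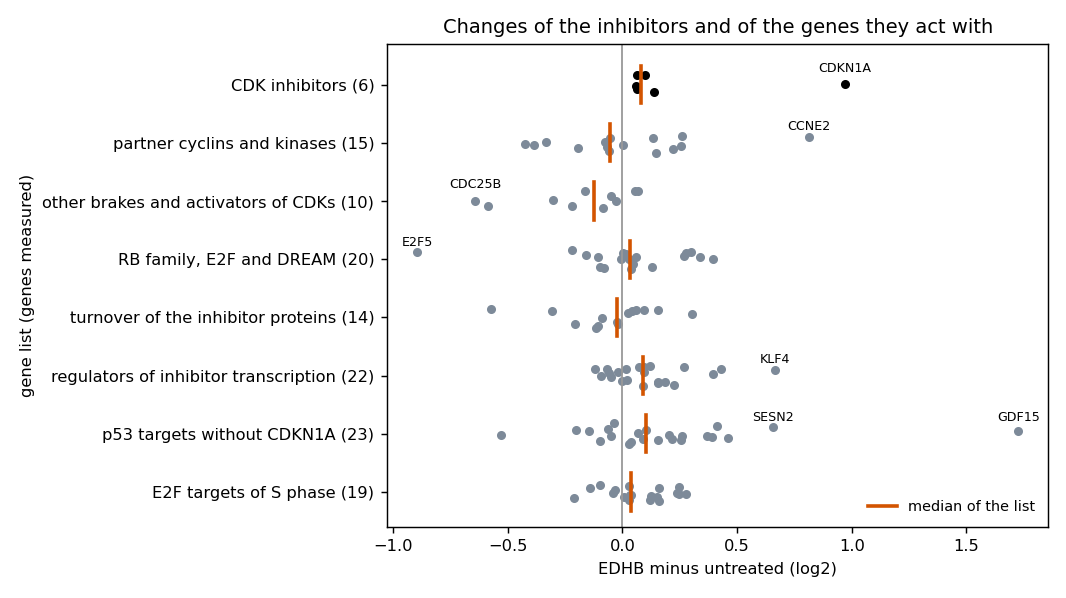
Change of each measured gene, EDHB minus untreated in log2 units, for the CDK inhibitors (black) and 7 lists of related genes (grey), other p53 targets among them. The number measured is in brackets, an orange bar marks the median of each list, and genes beyond 0.6 in size are named. The list medians lie between -0.12 and 0.10, and CDKN1A lies at 0.97.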

How the data were processed

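Per the submitters' processing notes, the authors used RMA, and they deposited its values as linear intensities for every probe set on each array. The software version was not given in the sources used here. This method subtracts background, equalises the arrays' distributions and summarises probes, which compresses small levels and removes global differences. Intensities (1.55 to 13393, array medians 23.2 to 23.4) were put on a log2 scale without a pseudocount. Precision is limited by the number of arrays.

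Values of replicate 2 matched a separate sheet laid beside that of replicate 1, with 148 probe sets up by 2-fold or more on top, 45 down by as much below them and all others after that, sorted by ID within each block. This layout is inferred from the values and stated in no label. A forward-backward alignment of untreated levels (Student's t density, scale 0.15, 3 degrees of freedom) restored 99.7% of rows at a posterior of at least 0.95, and 154 were left out. Of the 148 and 45 values in the 2-fold blocks, 113 in all were restored. Losses thus fell more heavily on strongly changed probe sets, and ranks and counts of genes cover restored probe sets only. EDHB values took no part beyond the 2-fold blocks. Restoring by similar untreated levels favours small differences between replicates.

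The annotation gave 1 gene for 41091 probe sets, several for 1801 and none for 11721. Each gene stood for its brightest restored probe set (19751 genes), named through the platform annotation and RefSeq gene identifiers. EDHB and untreated arrays were compared in limma 3.58.1 (R 4.3.3) with lmFit and eBayes and Benjamini-Hochberg adjustment over all genes, with 2 residual and 2.99 prior degrees of freedom. Restoring and limma were also run on simulated data drawn from the noise model that each assumes. Such runs cannot check the inferred layout or those noise models. Python 3.11.15 with numba 0.67.0 was used for the rest. Members and gene lists were chosen with earlier results of these data known. Named were all members, list genes called over all genes, and from each list the 2 largest rises and 2 largest falls above the median probe set, with every gene of the list around CDKN2A. Promoter sequences were matched by symbol.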

Additional observations from a re-analysis of the deposited data

How the results depend on the processing

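The count of genes called, 2 in limma, became 375 in the trend fit (211 higher, 164 lower), 426 without dim probe sets (265 and 161), 79 with a pseudocount of 16 (51 and 28), 40 with arrays centred on their medians (30 and 10), 38 with the mean of all probe sets of a gene (22 and 16) and 7 with cyclic loess (5 and 2). It became 0 when each probe set was tested separately, 0 with a posterior minimum of 0.5, and 0 without any 1 of the 4 arrays (lowest 0, highest 0), when the lone array of a group was assumed to vary like the others. The number of CDK inhibitors called, 0, became 1 (CDKN1A) in 5 of the alternatives. Its change there was 0.97 with the trend (adjusted p = 0.0104), 0.97 without dim probe sets (0.0181), 0.93 with the pseudocount (0.0394), 0.97 with means over probe sets (0.0439) and 0.98 with centred arrays (0.0472), and it missed the threshold with cyclic loess (0.0524) and the lower posterior minimum (0.0725). Without any 1 array its change was 0.91 to 1.03 (adjusted p 0.346 to 0.575). CDKN1A has no probe set without the suffix _s_ or _x_, so that alternative gives it no value. The change of CDKN2A was -0.079 with means over probe sets. Leaving out 1 array at a time gave -0.024 to 0.15 for CDKN1B, -0.11 to 0.24 for CDKN2B and -0.0075 to 0.12 for CDKN2D, with both signs, and 0.06 to 0.21 for CDKN1C and 0.05 to 0.15 for CDKN2A. No member other than CDKN1A was called in any of the 14 alternatives. The replicate numbers are not stated to pair the samples, and the deviations of same-numbered arrays correlated at 0.215. With a replicate block 0 genes and 0 CDK inhibitors were called, and CDKN1A had a change of 0.97 (adjusted p = 0.278). The cause of these shifts was not tested.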
